A study of Arabidopsis thaliana with 18 samples.

Results

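Transcripts of 10 genes of the xylem secondary wall were followed in roots and shoots of Arabidopsis thaliana after exposure to 1 of 2 rare earth elements. The 10 genes were taken by their locus identifiers from tables that held 28991 genes each, by a rule that uses no measured value. These genes were nevertheless chosen with earlier results of the data known. They comprised 2 transcription factors (VND7 and MYB46), 3 cellulose synthases (CESA4, CESA7 and CESA8), a xylan synthesis gene (IRX9), 2 laccases (LAC4 and LAC17) and 2 cysteine proteases (XCP1 and XCP2). All 10 passed the filter on low values in both tissues.

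Wild-type Col-0 plants were grown in hydroponic culture under 8 h of light and 16 h of darkness. At an age of 6 weeks they received 5 µM lanthanum chloride (La), 5 µM ytterbium chloride (Yb) or no rare earth (control) for 72 h. Phosphate was missing from the medium of every group, so the control plants lacked it too. Roots and shoots were sequenced separately, with 3 replicates for each of the 6 groups and 3 plants pooled in a replicate, which gave 18 libraries of polyadenylated RNA.

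Vessels of the xylem carry water through cells that die after building a thick secondary wall of cellulose, xylan and lignin. NAC transcription factors of the VND group start this programme, and MYB46 lies below them and activates genes for all the wall polymers. The enzymes then deposit the wall, and proteases stored in the vacuole clear the cell contents after death. In a bulk sample, fewer xylem cells and less RNA per xylem cell cannot be told apart.

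Values are reads per size factor, which the submitters scaled within each tissue, so treatments were compared within roots and within shoots. Root libraries held 12797264 to 16221846 reads in genes and shoot libraries 12442357 to 16345602. Markers of green tissue summed to 223400 to 300100 in shoot libraries and 27.64 to 179.2 in root libraries, as the tissue labels say. Some libraries stood apart in the xylem genes. In roots, control replicate 3 and Yb replicate 2 were low, and in shoots control replicate 3 was low for all 10 genes. The labels give no batch, and nothing in them tells if the replicates had containers of their own, so the p-values measure the spread between these pools, which may be technical. "Past the threshold" means an adjusted p under 0.05 in limma, by the Benjamini-Hochberg method over all genes tested. A fold or log2 change is given on the scale log2(value + 0.5) with its standard error (SE).

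To compare genes with each other, levels were expressed as RPKM, computed here from the recovered reads, the library total and the longest annotated transcript. In control roots the proteases led, with XCP1 at 92.4 ± 20.9 (SD, n = 3) and XCP2 at 75.5 ± 15.3. The laccases and cellulose synthases followed in a close series, from LAC17 at 22.7 ± 4.56 and LAC4 at 20.9 ± 3.5 through CESA4 at 18.7 ± 3.13 and CESA7 at 16.2 ± 0.848 to CESA8 at 13.5 ± 2.17. IRX9 lay at 12.5 ± 2.6, MYB46 at 4.47 ± 0.569 and VND7 at 2.0 ± 0.746. The control libraries of XCP1 and XCP2 overlapped, and so did those of each pair of neighbours between LAC17 and IRX9 except CESA7 and CESA8. The steps from XCP2 to LAC17, from IRX9 to MYB46 and from MYB46 to VND7 were wider than the spread.

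In control shoots XCP2 led at 37.3 ± 7.36 RPKM, above XCP1 at 20.7 ± 5.1, without overlap. LAC17 at 5.57 ± 1.09, LAC4 at 5.55 ± 1.19, CESA8 at 4.21 ± 1.06, CESA4 at 4.01 ± 1.01 and CESA7 at 3.66 ± 0.661 overlapped from neighbour to neighbour. IRX9 lay below them at 2.14 ± 0.533. MYB46 at 0.706 ± 0.314 and VND7 at 0.626 ± 0.162 were lowest and overlapped. All 10 genes were thus present in both tissues, and the regulators were the lowest in each. Among the cellulose synthases of growing primary walls, CESA3 reached 119 ± 6.32 in control roots and 127 ± 1.81 in control shoots on the same scale.

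VND7 (AT1G71930, chr1:27074702-27077991, plus strand) encodes a NAC factor that can switch cells to vessel fate. Its root values were 32.17, 59.75 and 32.89 reads per size factor in the controls, 31.65, 22.71 and 33.6 with La and 40.03, 52.62 and 40.95 with Yb. Control replicate 2 was the highest of the 9 root libraries, and the La libraries overlapped the controls but lay below every Yb library. MYB46 (AT5G12870, chr5:4062666-4065075, minus strand) encodes the MYB switch below the NAC factors. MYB46 measured 89.85, 77.68 and 66.8 in control roots, 51.69, 52.42 and 78.71 with La and 64.81, 55.59 and 83.96 with Yb. La replicates 1 and 2 lay below all controls, and La replicate 3 lay among them.

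The secondary wall cellulose synthase complex is built from CESA4, CESA7 and CESA8, all of which it needs. CESA4 (AT5G44030, chr5:17714390-17719723, plus strand) measured 978.3, 1106 and 765.7 reads per size factor in control roots, 712, 736.5 and 864.9 with La and 822.5, 564.9 and 936.8 with Yb. CESA7 (AT5G17420, chr5:5736630-5741500, minus strand) measured 776.4, 818.6 and 717.3 in control roots, 541.2, 594.1 and 707.5 with La and 676.7, 543 and 783.3 with Yb. For CESA7 every La library lay below every control, by a margin of 707.5 against 717.3 at the closest pair. CESA8 (AT4G18780, chr4:10312624-10316886, minus strand) measured 693.3, 698.1 and 500.5 in control roots, 526.4, 501.5 and 612.4 with La and 595.7, 374.3 and 711.6 with Yb. Its lowest library was Yb replicate 2 and its highest Yb replicate 3, so the groups overlapped.

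IRX9 (AT2G37090, chr2:15587394-15589369, minus strand), a glycosyltransferase needed to lengthen the xylan backbone, measured 276.2, 303.8 and 193.2 reads per size factor in control roots. With La it measured 204.6, 263.8 and 289.9, and with Yb 220.2, 208.5 and 261.1. Control replicate 3 was the lowest of all 9 libraries, and the 3 groups overlapped throughout.

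LAC4 and LAC17 oxidise monolignols, the step that polymerises lignin in the wall. LAC4 (AT2G38080, chr2:15934244-15937616, plus strand) measured 687.7, 749.9 and 519 reads per size factor in control roots, 466.3, 473.5 and 657.6 with La and 574.7, 394.1 and 640.9 with Yb. LAC17 (AT5G60020, chr5:24167996-24170462, plus strand) measured 743.2, 723 and 487.1 in control roots, 405.1, 289.2 and 515.5 with La and 471.8, 351.4 and 528.3 with Yb. All 6 exposed root libraries of LAC17 lay below control replicates 1 and 2, while control replicate 3 lay among the exposed ones. An annotated gene on the opposite strand, AT5G60022, overlaps LAC17 over 2266 bases and had 17 to 45 reads per root library against 331 to 726 for LAC17. The strand setting of the counting is not given in the sources used here, so reads of the pair may not be separable.

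XCP1 and XCP2 are papain-like proteases that take part in the autolysis of vessel cells. XCP1 (AT4G35350, chr4:16810482-16812077, plus strand) measured 1689, 2159 and 1341 reads per size factor in control roots, 1225, 930.4 and 1449 with La and 1418, 1044 and 1466 with Yb. XCP2 (AT1G20850, chr1:7252111-7253747, plus strand) measured 1420, 1779 and 1161 in control roots, 1199, 882.4 and 1204 with La and 1310, 860.7 and 1387 with Yb. For both proteases control replicate 2 was highest and replicate 2 of each exposed group lowest within its group, and the groups overlapped.

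**Figure D1:**
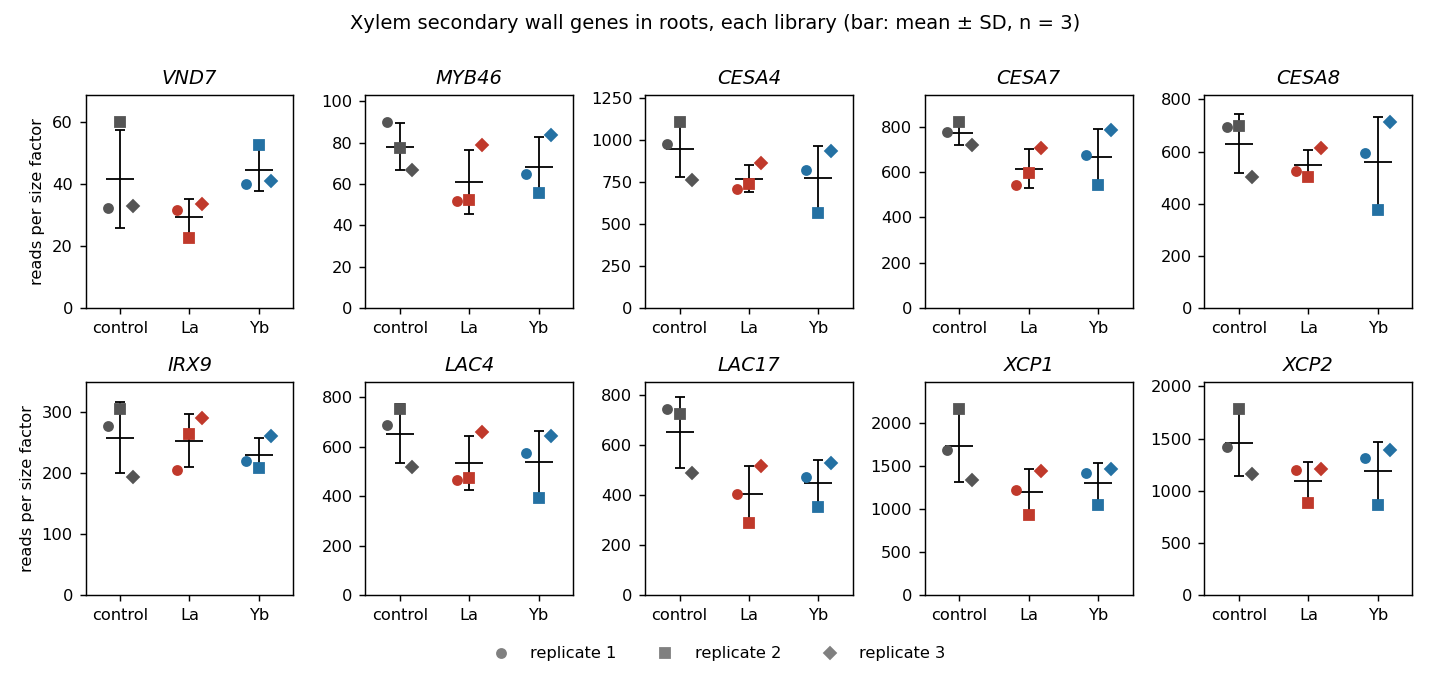
Reads per size factor of the 10 genes in each root library (vertical axes from 0, one scale per gene), with markers for replicates 1 to 3 and bars for the mean ± SD of 3 replicates. For LAC17 the La mean (403.2) lies below the control mean (651.1), while control replicate 3 (487.1) lies below La replicate 3 (515.5).

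The comparison of La with control asks how the light element changes root transcripts. All 10 xylem genes had a negative log2 change in La roots, from -0.70 for LAC17 to -0.02 for IRX9, with a median of -0.35, where 11375 of all 22729 genes tested were negative and their median was 0. The 10 genes varied in common from library to library (below), so their signs are not separate observations, here and in the comparisons that follow. None of the 10 passed the threshold in limma, where 18.9% of all genes tested did so. The smallest adjusted p was 0.0878, for LAC17, which stood at 0.614 times the control level (log2 change -0.70 ± 0.25 SE). XCP1 came next in size at -0.52 ± 0.22 (adjusted p = 0.135), then VND7 at -0.46 ± 0.29 (adjusted p = 0.309), XCP2 at -0.40 ± 0.22, MYB46 at -0.37 ± 0.23 and CESA7 at -0.33 ± 0.14 (adjusted p = 0.124). CESA4 and LAC4 stood at -0.29 each, and CESA8 at -0.19 ± 0.23. The 95% interval of the IRX9 change ran from -0.43 to 0.40.

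At an unadjusted p under 0.05, 3 of the 10 counted (CESA7, XCP1 and LAC17) in La roots, and 32.5% of all genes tested did. edgeR called 0, and DESeq2 called 1, LAC17 at -0.69 (adjusted p = 0.0266; 0.0266 to 0.229 over 19 alternatives). Groups that did not overlap were found for 1 gene, CESA7, lower with La, a pattern that 19.4% of all genes tested showed. At the unadjusted level and in overlap, neither share of the 10 was above that of all genes. Without any 1 of the 9 root libraries, 9 or 10 genes had a negative value, and the median ranged from -0.47, without control replicate 3 or without La replicate 3, to -0.21, without control replicate 2.

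Yb, the heavy element, was compared with the same control libraries, so its values are not independent of those of La. In Yb roots 9 of the 10 genes had a negative log2 change, with a median of -0.26, and VND7 was positive at 0.15 ± 0.29. LAC17 again had the largest value, -0.53 ± 0.25 (adjusted p = 0.339, the smallest of the 10), followed by XCP1 at -0.39 ± 0.22, CESA4 at -0.31 ± 0.20 and XCP2 at -0.30 ± 0.22. LAC4, CESA7, MYB46, CESA8 and IRX9 lay between -0.29 and -0.15. None passed the threshold in limma, edgeR or DESeq2, while 1.24% of all genes tested passed in limma. None had an unadjusted p under 0.05, which 16.6% of all genes tested had. No gene of the 10 had all Yb libraries below all controls, which 9.62% of all genes tested had. The median was -0.08 without Yb replicate 2 and -0.42 without Yb replicate 3.

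Set directly against Yb roots, La roots had log2 differences from -0.18 for LAC17 to 0.13 for IRX9 in 9 of the genes. Without Yb replicate 2 the same 9 ran from -0.35 for LAC17 to 0.06 for IRX9. The median of the 10 ranged from -0.27 to 0.05 without any 1 of the 9 root libraries, with 3 to 9 genes negative. VND7 stood at 0.658 times the Yb level (-0.60 ± 0.29, adjusted p = 0.246), and its La libraries were all below its Yb libraries, as were those of 14.8% of all genes tested. None of the 10 passed in limma, edgeR or DESeq2, against 6.45% of all genes tested that passed in limma. None had an unadjusted p under 0.05, where 23% of all genes tested had. The intervals stayed wide: that of CESA8 ran from -0.52 to 0.53, and that of VND7 from -1.24 to 0.04.

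**Figure D2:**
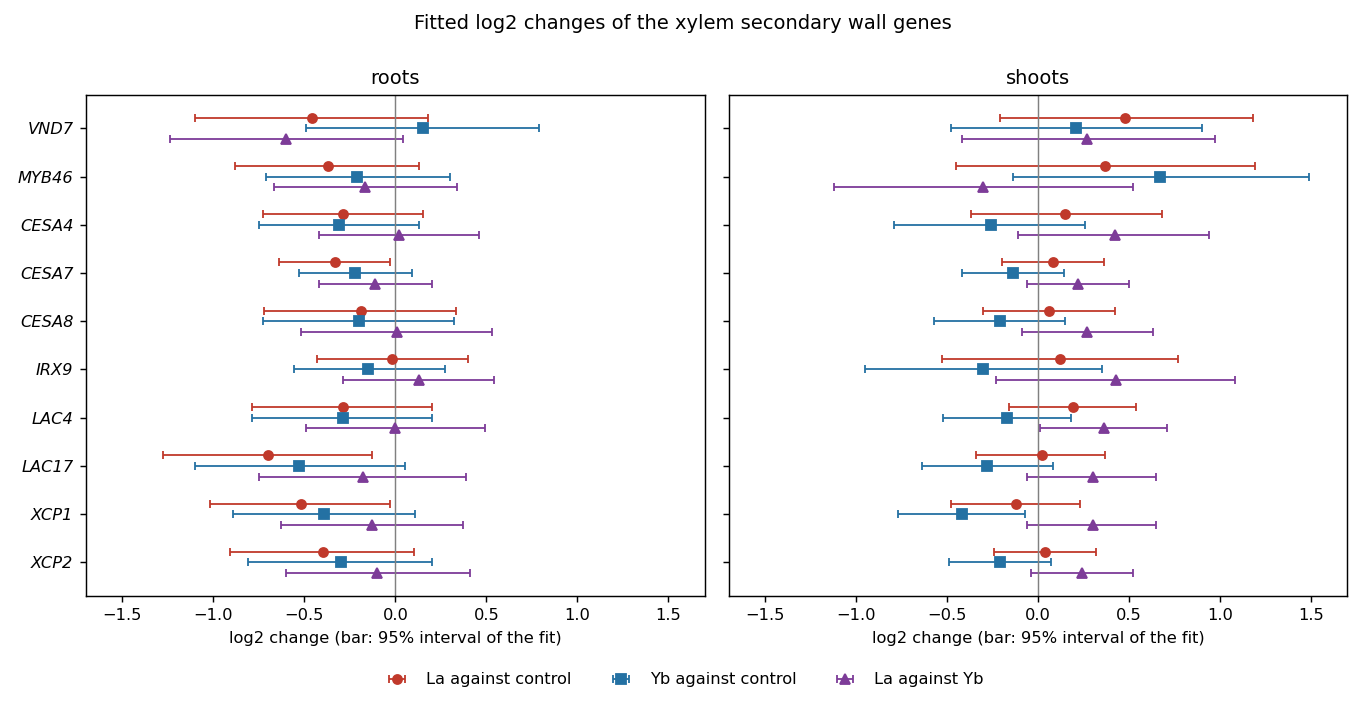
Fitted log2 change of each gene (horizontal axis) with the 95% interval of the fit, in 3 comparisons per tissue: La with control, Yb with control, and La with Yb. In roots the La values lie left of 0 for all 10 genes, and in shoots the values of La against Yb lie right of 0 for all except MYB46 (-0.30).

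In shoots every xylem gene was measured with fewer reads, down to 7 to 24 reads per library for MYB46 and 9 to 21 for VND7. VND7 measured 13.84, 16.8 and 9.684 reads per size factor in control shoots, 19.37, 18.32 and 17.99 with La and 11.15, 20.24 and 15.67 with Yb. All La libraries of VND7 lay above all controls. MYB46 measured 11.87, 18.9 and 7.532 in control shoots, 11.4, 14.25 and 23.27 with La and 16.29, 23.13 and 19.16 with Yb. Every Yb library of MYB46 was above control replicates 1 and 3, while control replicate 2 lay within the Yb range.

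For the wall enzymes of shoots, control replicate 3 gave the lowest control value each time. CESA4 measured 243.2, 241.4 and 146.3 reads per size factor in control shoots, 170.9, 254.5 and 271.9 with La and 199.8, 151.3 and 163.7 with Yb. CESA7 measured 218.5, 170.1 and 150.6 in controls, 175.5, 200.5 and 187.3 with La and 161.2, 154.2 and 167.2 with Yb. All CESA7 values with La exceeded all those with Yb. CESA8 measured 210.6, 251.9 and 147.4 in controls, 178.9, 217.8 and 228.5 with La and 168.9, 170.6 and 175.9 with Yb, and its La libraries again lay above its Yb libraries. IRX9 measured 58.34, 44.09 and 34.43 in controls, 41.02, 37.66 and 74.06 with La and 50.59, 27.94 and 33.09 with Yb, with overlap throughout.

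The laccase LAC4 measured 206.7, 198.4 and 132.4 reads per size factor in control shoots, 169.8, 210.7 and 226.4 with La and 163.8, 147.4 and 158.5 with Yb. LAC17 measured 191.8, 176.4 and 125.9 in controls, 161.8, 147.6 and 184.1 with La and 156.1, 112.7 and 135 with Yb. La libraries of LAC4 lay above all its Yb libraries, while those of LAC17 overlapped. The protease XCP1 measured 414.3, 493.4 and 291.6 in controls, 321.4, 360.3 and 398.8 with La and 301, 280.4 and 294.3 with Yb. XCP2 measured 768.3, 878.6 and 576.8 in controls, 697.4, 787.9 and 764.9 with La and 626, 597.4 and 678.3 with Yb. For both proteases the Yb libraries were close together and below every La library, while control replicate 3 lay within the Yb range for XCP1 and below it for XCP2.

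**Figure D3:**
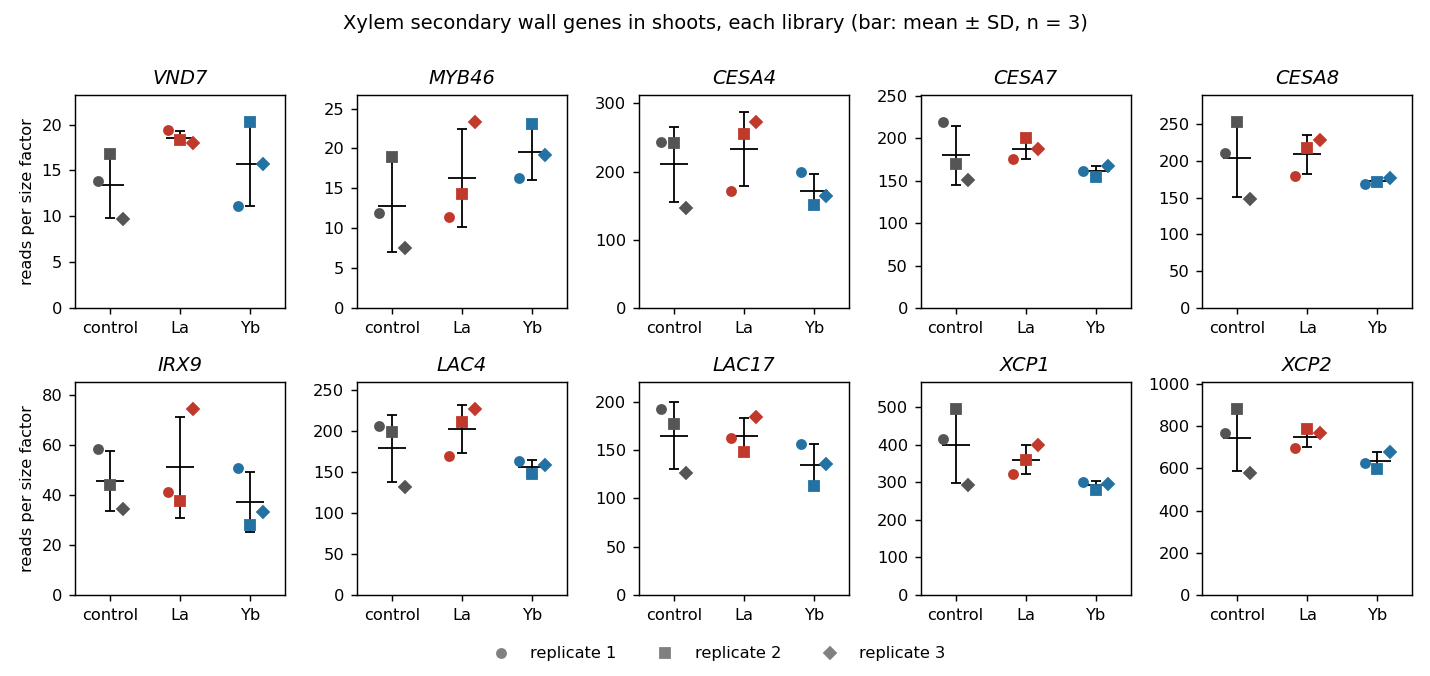
Reads per size factor of the 10 genes in each shoot library (vertical axes from 0, one scale per gene), with markers for replicates 1 to 3 and bars for the mean ± SD of 3 replicates. Control replicate 3 is the lowest control for every gene, for example 291.6 for XCP1.

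With La, 9 of the 10 genes had a positive log2 change in shoots, with a median of 0.10, the largest for VND7 (0.48 ± 0.32) and MYB46 (0.37 ± 0.38). XCP1 was the exception at -0.12 ± 0.16. The direction rested on 1 library: without control replicate 3, 8 of the 10 were negative and the median was -0.08. None passed in limma, edgeR or DESeq2 (smallest adjusted p 0.739), where 0.0865% of all genes tested passed in limma. None had an unadjusted p under 0.05, and 8.28% of all genes tested had. VND7 was the 1 gene of the 10 with all La libraries above all controls, against 6.25% of all genes tested.

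With Yb, 8 of the 10 genes had a negative log2 change in shoots, with a median of -0.21, and the regulators MYB46 (0.67 ± 0.38) and VND7 (0.21 ± 0.32) were positive. XCP1 had the smallest adjusted p (0.523; -0.42 ± 0.16) and was the 1 gene of the 10 with an unadjusted p under 0.05, which 8.44% of all genes tested had. None passed in limma, edgeR or DESeq2, and 0.041% of all genes tested passed in limma. Without control replicate 3, XCP1 stood at -0.63 with an adjusted p of 0.0228, while over 19 alternatives its adjusted p ran from 0.0228 to 0.856. No gene of the 10 had all Yb libraries below all controls, where 7.18% of all genes tested had.

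La and Yb shoots differed in the same direction in 9 genes, all except MYB46 (-0.30 ± 0.38). The median log2 difference of La minus Yb was 0.28, and it was 0.22 to 0.34 without any 1 of the 9 shoot libraries. The largest values were those of IRX9 (0.43 ± 0.30), CESA4 (0.42 ± 0.23) and LAC4 (0.36 ± 0.16). In 5 of the 10 genes (CESA7, CESA8, XCP1, XCP2 and LAC4) every La library was above every Yb library, a pattern found in 6.73% of all genes tested. None passed the threshold in limma, edgeR or DESeq2, and the adjusted p of LAC4, 0.731, was the smallest of the 10. LAC4 was the 1 gene with an unadjusted p under 0.05, against 6.77% of all genes tested. In this comparison 0.0091% of all genes tested passed. The genes varied in common from library to library (below), so the 5 are not separate observations.

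Whether an element acted differently in the tissues was tested as the change in shoots minus the change in roots, over all 18 libraries. For La all 10 differences were positive, with a median of 0.44, the largest being VND7 (0.94 ± 0.44, adjusted p = 0.225), MYB46 (0.74 ± 0.46) and LAC17 (0.72 ± 0.32, adjusted p = 0.208). These signs are again not separate observations. None passed in limma, where 6.86% of all genes tested did, and edgeR also called 0. A block across tissues, which paired the root and shoot libraries of the same treatment and number, was also fitted. With it limma called 1, LAC17 at 0.72 (adjusted p = 0.0258, with 0.0258 to 0.413 over 22 alternatives). VND7 and LAC17, 2 of the 10, had an unadjusted p under 0.05, and 21.4% of all genes tested had. The median was 0.27 without control shoot replicate 3 and 0.59 without control root replicate 3. For Yb the differences lay between -0.16 and 0.25 except for MYB46 (0.88 ± 0.46, adjusted p = 0.471), and none passed in limma or edgeR, against 0.31% of all genes tested that passed in limma. None had an unadjusted p under 0.05, where 12% of all genes tested had.

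In several libraries most of the 10 genes lay on the same side of their control means, though no correlation between the genes was computed. Relative to the control mean of each gene, the median of the 10 was -0.31 on the log2 scale in control root replicate 3, and all 10 were below 0 there. In control root replicate 2 none was below 0 and the median was 0.23. Among exposed roots the median was -0.43, -0.50 and -0.12 in La replicates 1 to 3 and -0.19, -0.70 and 0.01 in Yb replicates 1 to 3. In shoots control replicate 3 stood at -0.41 with all 10 below 0, controls 1 and 2 at 0.16 and 0.25, the La libraries at -0.07, 0.15 and 0.28, and the Yb libraries at -0.12, -0.27 and -0.16. Over all genes tested the same median stayed between 0 and 0.01 in every library.

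On the log2 scale, residual SDs of the 10 genes spanned 0.20 to 0.36 (roots) and 0.17 to 0.49 (shoots), above the all-gene medians of 0.18 and 0.16. CESA7 had the smallest spread in both tissues (0.20 and 0.17), and MYB46 in shoots the largest. LAC4 followed the common profile of the 10 most closely, with a root mean square difference of 0.217 in roots and 0.188 in shoots between standardised profiles over 9 libraries. The common profile was the mean of the 10 and so contained each gene compared with it. Differences of the 10 are therefore not on equal terms with those of genes outside them. VND7 was farthest in roots (1.03) and MYB46 in shoots (1.02), each measured with few reads. IRX9 (0.736 in roots and 0.712 in shoots) also followed the profile less closely, as did VND7 (0.976) and CESA7 (0.633) in shoots.

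**Figure D4:**
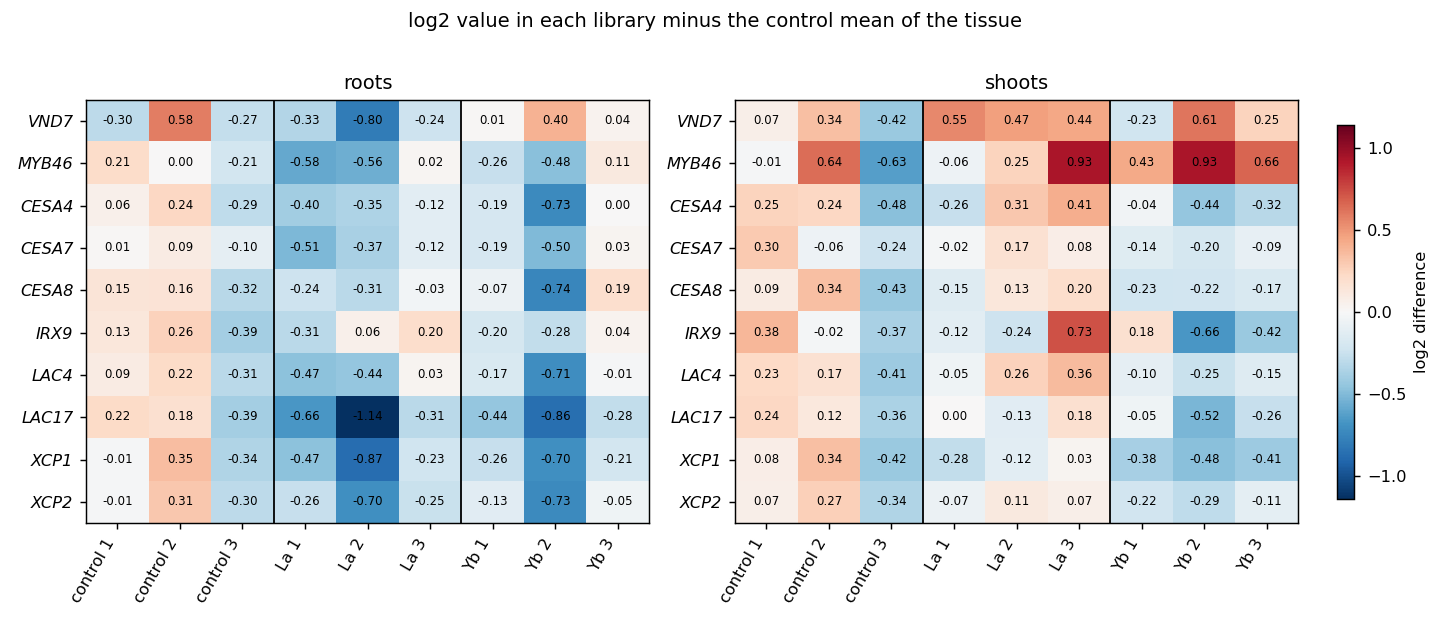
log2 value of each gene in each library minus the control mean of its tissue, as colour and number, for roots and shoots. Control replicate 3 is negative for all 10 genes in both tissues, and Yb root replicate 2 is negative for all except VND7 (0.40).

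Outside the 10, the genes with the most similar profile over the 9 root libraries were AT3G27200 (root mean square difference 0.303), CYP82F1 (0.312), PFK1 (0.342), RALF1 (0.359) and AT1G72160 (0.372), among 20024 candidates. In shoots they were AT4G13690 (0.155), AT4G04460 (0.187), AT5G62710 (0.267), AT1G23460 (0.269) and AT1G62330 (0.278), among 18717 candidates. AT4G04460 was also on the list of xylem cell death genes below. No gene was among the 5 in both tissues.

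The 250 bases before and 50 after the annotated starts of the 10 genes were searched for a pair of elements known from wall and vessel genes. One is bound by MYB46, the secondary wall MYB-responsive element (SMRE): ACC, then A or T, then A, then A or C, then C or T, on either strand. Promoters and coordinates are those of RefSeq for TAIR10.1. The SMRE was in 5 of the 10 promoters and in 33.6% of 27443 promoters, so a match is common. The SMRE lay before the start in CESA4, VND7 and LAC17 and after it in CESA7 and CESA8. The tracheary element-regulating element (TERE), CTTNAAAGCNA on either strand, was in 2 of the 10, CESA4 and XCP1, and in 0.448% of all promoters. This full form was searched after the data were seen, and a shorter core of fixed letters, GAAAGCA, was in 0 of the 10 and 4.33% of all. The 4 promoters with either element before the start are shown 5′ to 3′ on the strand of the gene, with the elements in capitals. They span chr5:17714140-17714389 for CESA4, chr1:27074452-27074701 for VND7, chr4:16810232-16810481 for XCP1 and chr5:24167746-24167995 for LAC17, all on the plus strand.
CESA4: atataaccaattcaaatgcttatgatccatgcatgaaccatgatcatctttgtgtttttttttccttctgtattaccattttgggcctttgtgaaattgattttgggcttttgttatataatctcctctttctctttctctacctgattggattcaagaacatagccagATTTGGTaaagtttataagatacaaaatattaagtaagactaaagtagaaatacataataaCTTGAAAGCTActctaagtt
VND7: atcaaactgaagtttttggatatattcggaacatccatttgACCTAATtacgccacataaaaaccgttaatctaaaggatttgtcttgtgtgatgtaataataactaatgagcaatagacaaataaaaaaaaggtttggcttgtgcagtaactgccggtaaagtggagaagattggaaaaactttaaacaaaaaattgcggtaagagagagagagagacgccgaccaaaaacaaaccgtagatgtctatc
XCP1: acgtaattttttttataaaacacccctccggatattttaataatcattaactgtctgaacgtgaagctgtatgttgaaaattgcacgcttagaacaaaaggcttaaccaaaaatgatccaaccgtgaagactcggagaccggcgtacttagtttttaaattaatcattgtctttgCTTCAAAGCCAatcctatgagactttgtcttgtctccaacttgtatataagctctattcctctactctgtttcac
LAC17: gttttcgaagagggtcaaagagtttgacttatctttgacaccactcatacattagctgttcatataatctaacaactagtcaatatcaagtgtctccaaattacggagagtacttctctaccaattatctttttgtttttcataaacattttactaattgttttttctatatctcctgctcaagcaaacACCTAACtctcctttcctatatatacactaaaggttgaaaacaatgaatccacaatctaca
The SMRE of CESA4 lies on the minus strand, from 81 to 75 bases before the start, that of VND7 from 209 to 203 and that of LAC17 from 61 to 55. The TERE lies from 20 to 10 bases before the start in CESA4 and from 75 to 65 in XCP1, and it overlaps no SMRE. No reading of binding follows from these letters.

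Ratios within a library cancel what the genes share. The ratio of LAC17 to LAC4 in roots was 1.08, 0.964 and 0.939 in controls, 0.869, 0.611 and 0.784 with La and 0.821, 0.892 and 0.824 with Yb. All 6 exposed root libraries lay below all 3 controls. Means were 0.754 ± 0.13 with La, 0.846 ± 0.04 with Yb and 0.994 ± 0.076 in controls (SD, n = 3). La and Yb were compared with the same control libraries, so their results are not independent. The share of other gene pairs whose ratios separate in this way was not tested. Among single genes tested in roots, all La libraries lay below all controls for 19.4%, and all Yb libraries for 9.62%. The exact permutation test gave p = 0.1 for each element against control, two-sided, which is the smallest p that 3 against 3 allows. In shoots the LAC17 to LAC4 means were 0.822 ± 0.13 with La, 0.856 ± 0.094 with Yb and 0.923 ± 0.032 in controls, and the groups overlapped (exact permutation p = 0.4 for each element). These were among 5 ratios tested in 6 comparisons, chosen with results known, and none could reach the threshold.

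The proteases changed order between the tissues. Per unit length, the XCP1 to XCP2 ratio was 1.05 to 1.25 over the 9 root libraries and 0.446 to 0.578 over the 9 shoot libraries, with control means of 1.22 ± 0.0308 and 0.551 ± 0.029. For CESA4 to CESA8 the root range was 1.21 to 1.46 and the shoot range 0.818 to 1.1. Neither range overlapped between tissues, and for the control libraries alone the exact permutation p was 0.1 for each, again the smallest possible. A further ratio compared in this way, LAC17 to LAC4, did overlap, at 0.667 to 1.18 in roots and 0.765 to 1.04 in shoots. For its control libraries the exact permutation p was 0.2. How often ratios of other gene pairs separate between tissues was not tested. Within roots, the ratios among CESA4, CESA7 and CESA8 gave exact permutation p-values of 0.1 to 1, and within shoots of 0.3 to 1.

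Other genes of wall formation were read from 9 lists, named after processes the 10 genes serve. In La roots, the primary wall cellulose synthases had 0 of 7 tested members past the threshold upward and 1 downward, with a median of -0.02. That gene, CESA10, was barely detected, with 1 read in all La roots and 19 in control roots. The ratio of scaled reads was 0.0483 (exact 95% counting interval 0.00116 to 0.304). This interval pools the reads of each group and leaves out the spread between libraries. The call of CESA10 was lost without control replicate 1 or 3 or La replicate 2 or 3 (log2 change -3.71 to -2.83 without any 1 compared library). Of all genes tested, 9.41% were higher with La and 9.51% lower, the shares against which each list's counts are read.

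NAC regulators had 3 of 12 tested members higher with La and 0 lower, with a median of 0.18. XND1, a NAC factor known to restrain vessel wall formation, rose by 0.94 ± 0.12 (adjusted p = 0.00147). XND1 measured 70.99, 74.69 and 69.89 reads per size factor in controls, 129.7, 152 and 133.4 with La and 136.3, 134 and 124.9 with Yb. VNI2, a NAC factor that binds VND7 and represses its targets, rose by 1.03 ± 0.17 (adjusted p = 0.0041), with 2490, 2542 and 2237 in controls, 4169, 5956 and 4889 with La and 3326, 3171 and 2185 with Yb. All exposed libraries of XND1, and all La libraries of VNI2, lay above the controls. SND3, a NAC activator of the wall programme, rose by 0.95 ± 0.22 (adjusted p = 0.0136).

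MYB and other wall regulators had 4 of 16 members higher and 1 lower with La (median 0.04). MYB54 rose by 1.11 ± 0.14 (adjusted p = 0.00112), MYB52 by 1.30 ± 0.19 (adjusted p = 0.00204) and MYB69 by 1.58 ± 0.31 (adjusted p = 0.00782), all MYB genes of the secondary wall network. MYB54 measured 80.97, 67.72 and 68.86 in controls and 157.2, 158.1 and 155.5 with La, without overlap. Among xylan genes 0 of 19 were higher and 3 lower (median -0.14). GXM2, of the xylan methyltransferase family, fell by 2.24 ± 0.37 on the log2 scale (adjusted p = 0.00542), and F8H, which takes part in xylan synthesis, fell by 1.38 ± 0.25 (adjusted p = 0.00632). IRX9L, the close relative of IRX9, fell by 0.28 ± 0.07 (adjusted p = 0.0225), and its call was lost without any 1 of the controls or La replicate 2 or 3 (-0.31 to -0.26). The IRX9L call was also lost with the replicate number as a block.

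The other laccases had 4 of 14 tested members higher and 2 lower (median -0.14), in the family that also holds LAC4 and LAC17. LAC5 rose by 1.30 ± 0.13 (adjusted p = 0.000467), LAC7 by 1.2 ± 0.13 (adjusted p = 0.000719) and LAC12 by 1.36 ± 0.18 (adjusted p = 0.00153). LAC5 measured 308.4, 312.7 and 297 in controls, 753.2, 736.5 and 773.7 with La and 565.2, 377.2 and 487.4 with Yb, and the 3 groups did not overlap. Among the lignin peroxidases 2 of 9 were higher and 1 lower (median 0.08). AT2G22420 rose by 0.49 ± 0.13 (adjusted p = 0.0229), and its call was lost without control replicate 1 or 2 or La replicate 2 or 3 (0.43 to 0.58). PRX25 rose by 0.62 ± 0.17 (adjusted p = 0.0322; 0.49 to 0.83 without any 1 compared library) and PRX64, a peroxidase of the Casparian strip, fell by 1.47 ± 0.42 (adjusted p = 0.0461; -1.81 to -1.05). Both calls were lost without any 1 of the controls or La replicate 2 or 3. That of PRX64 was also lost in edgeR (adjusted p = 0.0621), with TMM scaling factors and with the 6 compared libraries alone.

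Xylem cell death genes, the list of XCP1 and XCP2's process, had 3 of 9 members higher and 0 lower with La (median 0.32). The other 6, MC9, RNS3 and XSP1 among them, did not pass, and XCP1 and XCP2 themselves had negative values that did not pass. CEP1, a protease of programmed cell death, rose by 5.33 ± 0.83 (adjusted p = 0.00573), from 25.51, 66.73 and 18.5 in controls to 817.5, 2287 and 1158 with La, and measured 345, 356.4 and 56.31 with Yb. The nuclease gene BFN1, known from senescence and developmental cell death, rose by 1.56 ± 0.30 (adjusted p = 0.0103), and the carboxypeptidase gene SCPL48 by 0.88 ± 0.14 (adjusted p = 0.00275). Cellulose and microtubule partners of the wall had 0 of 15 higher and 3 lower (median -0.18). ROPGEF4, an activator of ROP GTPases in xylem pit patterning and in root hair growth, fell by 2.21 ± 0.34 (adjusted p = 0.00361). MAP70-1, a microtubule-associated protein gene, fell by 0.37 ± 0.07 (adjusted p = 0.00748). MAP70-5 of the same family fell by 1.06 ± 0.27 (adjusted p = 0.0285), and its call was lost without control replicate 1 or 3 or any 1 of the La replicates (-1.24 to -0.93).

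Monolignol synthesis, which makes the substrates of the laccases, had 2 of 14 members higher and 2 lower with La (median 0.11). CAD5 rose by 0.65 ± 0.09 (adjusted p = 0.00173) and CCR1 by 0.50 ± 0.10 (adjusted p = 0.00667). F5H1, the ferulate 5-hydroxylase of syringyl lignin, fell by 1.30 ± 0.26 (adjusted p = 0.0111). Of the 25 list genes named for La roots, 19 stayed past the threshold whichever of the 6 compared libraries was left out.

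**Figure D5:**
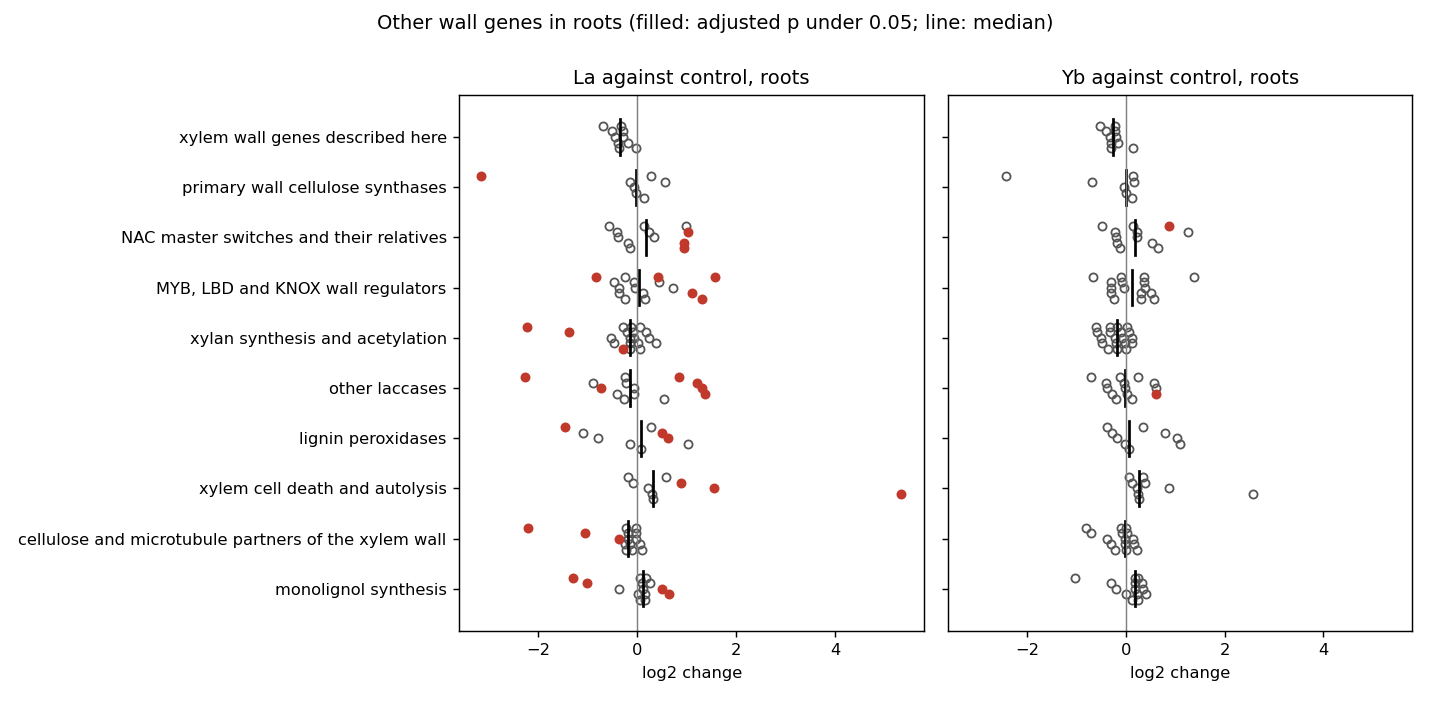
log2 change in roots (horizontal axis) of the 10 xylem genes and of every tested gene of the 9 other lists, for La and for Yb against the same controls, with filled points past the threshold and a line at each median. The 10 xylem genes lie left of 0 with open points, except VND7 with Yb (0.15), with medians of -0.35 (La) and -0.26 (Yb), while filled points appear on both sides in other lists with La.

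With Yb, XND1 rose by 0.87 ± 0.12 in roots (adjusted p = 0.0176) and LAC5 by 0.62 ± 0.13 (adjusted p = 0.0475), the 2 list genes past the threshold, where 0.871% of all genes were higher. The XND1 call was lost without control replicate 3 or Yb replicate 1 or 2 (0.84 to 0.91). The LAC5 call was lost without any 1 of the controls or Yb replicate 1 (0.49 to 0.78). It was also lost with no filter on low values, with TMM scaling factors, with a replicate block and with the 6 compared libraries alone.

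Between La and Yb roots, 2.64% of all genes tested were higher with La and 3.81% lower. Higher were 1 of 12 NAC regulators, 2 of 16 MYB and other regulators, 3 of 14 other laccases and 1 of 9 cell death genes. Lower were 2 of 19 xylan genes, 1 of 14 other laccases, 2 of 9 lignin peroxidases and 1 of 15 cellulose and microtubule partners. Named among the higher were VNI2 (0.80 ± 0.17, adjusted p = 0.0305), MYB54, MYB52, LAC5, LAC7 and SCPL48. A further higher laccase was left out by the limit of 3 named genes per list. Named among the lower were GXM2, F8H, LAC8, PRX4, PRX71 and ROPGEF4. Log2 differences of the named genes were 0.58 to 0.80 for the higher and -1.66 to -0.71 for the lower. None of these 12 kept its call without each 1 of the 6 compared libraries. Each was lost without La replicate 3, and each except LAC8 was also lost without La replicate 2. Each except MYB54 was lost under another setting too, such as the 6 compared libraries alone. In shoots no gene of the 9 lists passed the threshold in any comparison.

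Markers of other cell types moved in the same roots, and their part in the results was not tested. Summed over 4 root hair markers the level was 1243 to 1993 in controls, 23.59 to 176.6 with La and 444.8 to 1872 with Yb, and 3 of the 4 fell with La. Over 5 endodermis markers it was 3595 to 5715, 902.5 to 2070 and 2421 to 5189 in the same order, and 4 of the 5 fell with La. The 6 phloem markers summed to 2787 to 3047 in controls, 2936 to 3485 with La and 2839 to 3163 with Yb. The 6 procambium and cambium markers summed to 6363 to 6775 in controls, 7294 to 7981 with La and 7078 to 8173 with Yb, so both exposed groups lay above all controls. SUC2 of phloem companion cells (0.39 ± 0.10, adjusted p = 0.0192) and PXY of the cambium (0.34 ± 0.10, adjusted p = 0.0377) rose with La, and the other 5 of each list did not pass. Of the 6 phloem markers 4 had a negative value with La (median -0.10), and of the 6 cambium markers 1 did (median 0.26). In shoots the phloem sum was lowest in control replicate 3 (2826) and reached 3718 in control replicate 1, and it was 3298 to 3695 with La and 3123 to 3239 with Yb.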

How the data were processed

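RNA was sequenced from 18 libraries. The submitters' processing notes name HTSeq 0.6.1p1, TopHat2 2.1.1, Trimmomatic 0.36.1 and the TAIR10 genome. No setting is stated there, the strand option of the counting included. The deposited tables are titled RPKM, but their values are a signal that the authors made by dividing whole reads per gene by 1 size factor per library, within each tissue: 100.0% of values were whole multiples within 0.001. The planned test of log2 values was kept, and count tests on recovered reads served as alternatives.

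In R 4.3.3, limma 3.58.1 (trend and robust) was fitted per tissue to log2(value + 0.5) over 9 libraries, for genes with a value of at least 1 in at least 3 libraries, with treatment as the only factor. Tests were two-sided with Benjamini-Hochberg adjustment. Alternatives included edgeR 4.0.16 and DESeq2 1.42.0. Tissue differences used all 18 libraries. The pipeline was tested on simulated data.

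The 10 genes and the 9 lists (117 entries, with 5 more left out because their symbol and locus did not match) were chosen with earlier results of these data known. Of each list, at most the 3 genes with the smallest adjusted p past the threshold were named, and in each tissue the 5 genes most similar in profile, with a mean of at least 10. Positions and promoters were read from RefSeq TAIR10.1, to which 28781 of 28991 identifiers matched.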

Additional observations from a re-analysis of the deposited data

Results flagged for a closer look

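All of the 25 list genes named for La roots except MYB69 passed the filter in both tissues and were tested. Among those tested, 13 had a La effect that differed between shoots and roots, where 6.86% of all genes tested did. The test was limma's test of the difference itself (effect in shoots minus effect in roots, log2 scale, all 18 libraries, Benjamini-Hochberg adjustment). The difference was negative for VNI2 (-1.22, adjusted p = 0.0031), XND1 (-1.08, adjusted p = 0.0393), LAC5 (-1.44, adjusted p = 0.0238), CEP1 (-5.12, adjusted p = 0.00521), SCPL48 (-0.79, adjusted p = 0.00667) and CCR1 (-0.49, adjusted p = 0.0365), all of which rose in La roots.

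It was positive for GXM2 (2.07, adjusted p = 0.0212), IRX9L (0.35, adjusted p = 0.0394), ROPGEF4 (2.01, adjusted p = 0.0112), MAP70-5 (2.27, adjusted p = 0.00211), MAP70-1 (0.40, adjusted p = 0.0205), F5H1 (1.23, adjusted p = 0.0164) and CESA10 (3.43, adjusted p = 0.0338), all of which fell in La roots. CESA10 had 1 read in all La root libraries. These genes were named for their change in La roots, so a difference of this sign, and a count above the share of all genes, were favoured by the choice. No group had enough samples for a test of single outlying libraries.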

How the results depend on the processing

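None of the 10 genes passed in any comparison under any alternative, with 3 exceptions. DESeq2 called 1 in La roots (LAC17, -0.69, adjusted p = 0.0266; 0.0266 to 0.229 over its alternatives). Leaving out a library gave 0 to 1 in Yb shoots, the 1 being XCP1 without control replicate 3 (-0.63, adjusted p = 0.0228; 0.0228 to 0.856). The block that paired root and shoot libraries gave 1 for the La effect between tissues (LAC17, 0.72, adjusted p = 0.0258, range 0.0258 to 0.413). Over the genes tested in both tissues, same-numbered libraries did not deviate together. The r ran from -0.15 to 0.15 in roots, -0.09 to 0.08 in shoots and 0 to 0.07 between tissues. The main fits therefore did not take the numbers as pairs. For the 10 genes, however, library medians went partly alike between tissues. Control replicate 3 was the lowest control in roots (-0.31) and shoots (-0.41), and Yb replicate 2 the lowest Yb library (-0.70 and -0.27). La replicate 3 was the highest La library (-0.12 and 0.28), while La replicates 1 and 2 changed order. The test between tissues without the block takes no account of this. The replicate block within a tissue called 0 of the 10 in each of the 6 comparisons. Over all genes it called 3799, 239 and 1159 in roots (La, Yb, La against Yb) and 49, 34 and 30 in shoots.

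Of 680 values of the 10 genes under other settings, 8 changed sign, none with a size above 0.12 in the main fit. Of 900 without a library, 52 did, none above 0.20 in the main fit. The size after the change could be larger: the Yb effect of VND7 between tissues was 0.06 in the main fit and down to -0.23 without a library. Counts over all genes, added after seeing the data, ranged without a library from 2588 to 4781 in La roots, 8 to 1140 in Yb roots and 272 to 1485 for La against Yb roots, and in shoots from 3 to 100, 1 to 166 and 0 to 26. Under other settings they were 3799 to 5178, 129 to 1281, 497 to 2744, 7 to 121, 6 to 101 and 1 to 83 in the same order. The causes were not tested. With 3 libraries a group and 7 to 24 reads for MYB46 in shoots, changes of the size seen for the regulators were not separable from the spread.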
